A study of Mus musculus with 18 samples.

Results

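The insulin-like growth factor (IGF) family is described here across a time course of myocardial infarction in mice. The 10 genes were taken by name: the ligands Igf1 and Igf2, the receptors Igf1r and Igf2r, and the binding proteins Igfbp2, Igfbp3, Igfbp4, Igfbp5, Igfbp6 and Igfbp7. All 10 had a row among the 30583 genes of the count table, and 9 were among the 16311 genes tested. Igfbp2 was not tested, because its libraries held only 0 to 14 counts.

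IGF1 and IGF2 are small secreted proteins related to insulin. They signal through IGF1R, a tyrosine kinase that passes the signal to the PI3K-AKT and RAS-MAPK pathways and is known in the heart for its part in cardiomyocyte growth and survival. IGF2R, also the mannose 6-phosphate receptor, has no kinase and carries IGF2 to the lysosome. Outside the cell the ligands are held by binding proteins, which lengthen their life and limit their access to the receptor until proteases cut the binding protein. IGFBP7 differs from the others in binding IGFs only weakly, and is found in the basement membrane of vessels.

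RNA was sequenced from 18 male C57BL/6JR mice aged 12 weeks, 3 in each of 6 groups. In 5 groups infarction was produced under sodium pentobarbital by tying the left anterior descending coronary artery, and hearts were taken under isoflurane after 10 min, after 1 or 6 h, or after 24 or 72 h. The sham group, labelled 0 h, had the operation with the suture passed but left untied. The RNA came from the infarcted part of the left ventricle, and the only controls were sham mice, with no sham group for each time.

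The 10 genes lie on 7 chromosomes of mouse build GRCm38 (GENCODE M21), and all are protein coding. Igf1 ENSMUSG00000020053 spans chr10:87858265-87937042 on the plus strand, and Igf2 ENSMUSG00000048583 spans chr7:142650766-142666816 on the minus strand. Igf1r ENSMUSG00000005533 is at chr7:67952827-68233668 (plus) and Igf2r ENSMUSG00000023830 at chr17:12682406-12769664 (minus). Igfbp2 ENSMUSG00000039323 at chr1:72824503-72852474 (plus) and Igfbp5 ENSMUSG00000026185 at chr1:72857932-72874884 (minus) are neighbours that face each other end to end, 5.46 kb apart. Igfbp3 ENSMUSG00000020427 at chr11:7206086-7213923 (minus) and Igfbp4 ENSMUSG00000017493 at chr11:99041244-99054392 (plus) share a chromosome only. Igfbp6 ENSMUSG00000023046 is at chr15:102144362-102149511 (plus) and Igfbp7 ENSMUSG00000036256 at chr5:77349240-77408041 (minus).

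Igfbp4 and Igfbp7 were the binding proteins whose level rose by more than 1 on the log2 scale at 72 h, and they are shown here with the 250 bases before their RefSeq transcription start (GRCm38.p6, 5′ to 3′ on the gene's strand), so that their promoters can be compared. Capitals mark matches, on either strand, to the TATA box TATAAA and the GC box GGGCGG. The windows were also searched on both strands for the AP-1 site TGANTCA, the SMAD box GTCTAGAC and its shorter form CAGACA, the hypoxia core ACGTG, the E-box CANNTG and the C/EBP site TTGCNNAA, with overlapping matches allowed.
Igfbp4: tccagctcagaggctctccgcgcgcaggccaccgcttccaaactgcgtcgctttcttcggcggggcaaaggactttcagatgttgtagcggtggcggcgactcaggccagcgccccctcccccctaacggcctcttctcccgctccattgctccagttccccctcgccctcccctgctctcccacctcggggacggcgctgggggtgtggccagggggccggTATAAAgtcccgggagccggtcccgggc
Igfbp7: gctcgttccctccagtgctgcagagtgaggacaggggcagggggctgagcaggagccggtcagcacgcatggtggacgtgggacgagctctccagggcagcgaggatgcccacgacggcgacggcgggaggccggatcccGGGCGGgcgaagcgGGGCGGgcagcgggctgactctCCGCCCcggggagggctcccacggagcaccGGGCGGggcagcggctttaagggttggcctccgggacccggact

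The Igfbp4 window, chr11:99040994-99041243, was 69.2% G or C and held 1 TATA box, which 12.4% of the 32851 windows of that length in the table hold, and 1 E-box (66.2% of windows). The Igfbp7 window, chr5:77408046-77408295, held 4 GC boxes, present in 32.7% of windows, and 1 hypoxia core, present in 16.6%. None of the 8 motifs was found in both windows; the AP-1 site is in 6.75% of all windows, the SMAD box in 0.167%, its shorter form in 17.1% and the C/EBP site in 9.56%. The window before the RefSeq start of Igf1 lies wholly inside exons of longer Igf1 transcripts, all 250 bases, and is not printed. It held 1 AP-1 site and 1 E-box.

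Libraries held 18.2 to 25.1 M (mega) counts, and levels are given as CPM (counts per mega-count, 1 M, of library size scaled by TMM), each list of 3 values being the replicates 1, 2 and 3 of a group. The labels name cardiomyocytes as the cell type, but markers of other cells were present in every library, so the samples are read as whole tissue. The summed level of 8 cardiomyocyte markers was 57855 to 63032 CPM in sham, 24878 to 38951 at 24 h and 15218 to 20056 at 72 h, and all 8 fell at 72 h. In bulk tissue, fewer cells of a type and less RNA per cell cannot be told apart. The library labelled 6 h replicate 1 stands apart: 4 atrial markers summed to 172 CPM there, against at most 3.41 in every other library. At 24 h, replicate 3 had the lowest cardiomyocyte sum of its group, and its 8 neutrophil markers summed to 985 CPM against 296 and 108 in replicates 1 and 2. Calls against sham within the family, at 6 h and at 24 h, are therefore also given without these libraries, and those of the pathway lists as counts.

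**Figure D1:**
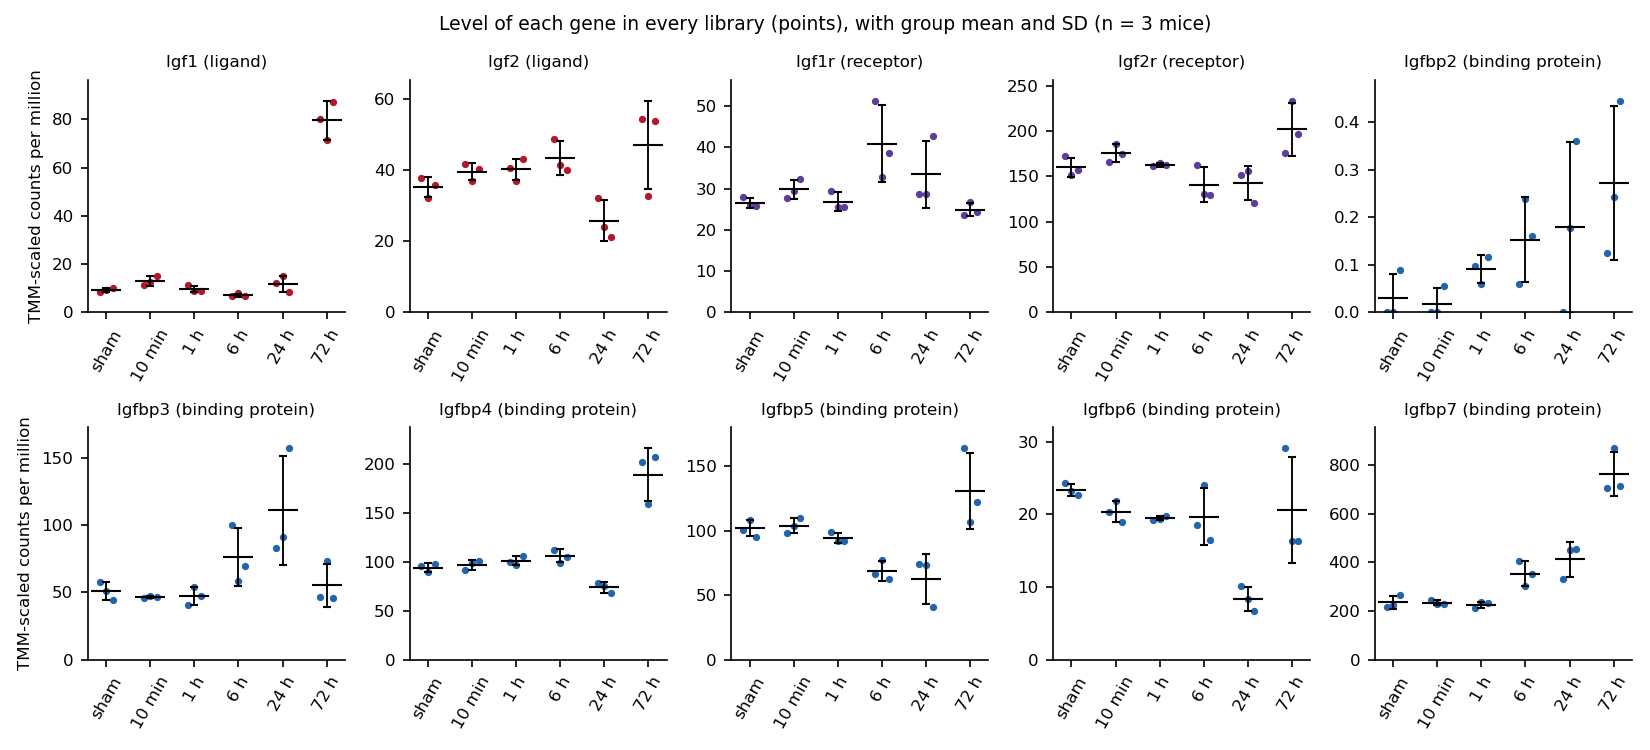
Level of each of the 10 genes (y axis, TMM-scaled CPM, from 0) in every library, by group on the x axis; points are mice, lines and bars the mean and SD of 3. Igf1 sits between 6.6 and 15.2 in all groups up to 24 h and between 71.5 and 87.4 at 72 h, while Igfbp6 and Igfbp3 leave the sham level most at 24 h.

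The largest change among the 9 tested genes was that of Igf1, the ligand that growth hormone induces in liver and that many tissues also make. Igf1 was at 8.44, 9.23 and 9.91 CPM in sham, and at 80.0, 71.5 and 87.4 CPM at 72 h. The groups were far from overlapping, and the 72 h mice were also far above all mice of the earlier times. Igf1 rose 8.65-fold at 72 h (log2 ratio to sham 3.11 with SE 0.17, adjusted p = 6.27e-11 by edgeR's quasi-likelihood test with Benjamini-Hochberg adjustment over all genes tested, as for all adjusted p below). At 6 h the mice were at 6.73, 7.89 and 6.6 CPM, all below sham, with a log2 fold change of -0.38 that did not pass (edgeR adjusted p = 0.124). At 24 h they were at 12.0, 15.1 and 8.35 CPM, replicate 3 being just below the sham mice and the others above them, and the difference from sham did not pass (edgeR adjusted p = 0.088). Without that replicate Igf1 was already higher than sham at 24 h (log2 ratio 0.56, edgeR adjusted p = 0.00651). From 6 h to 24 h Igf1 rose (log2 ratio 0.75, edgeR adjusted p = 0.00425), a call lost in the fit of these 2 groups alone (0.74, edgeR adjusted p = 0.0816). From 24 h to 72 h it rose 6.69-fold (2.74 with SE 0.17, edgeR adjusted p = 6.27e-10). Macrophage markers rose at 72 h as well, 8 of 8, and of 8 fibroblast markers 7 were higher and 1 lower. The part of either cell type in the rise of Igf1 was not tested.

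At 10 min Igf1 was at 11.2, 12.7 and 15.2 CPM, all 3 mice above all 3 sham mice. The log2 fold change was 0.50 (SE 0.17), which had an unadjusted p of 0.00887 but did not pass over all genes (edgeR adjusted p = 0.492). In a fit of the sham and 10 min libraries alone it passed (edgeR adjusted p = 0.0448). At 1 h the level was 11.2, 9.0 and 8.8 CPM, overlapping sham.

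Igf2, the ligand known for fetal growth and expressed from the paternal copy, moved less and in a different order. The sham mice had 37.7, 32.2 and 35.9 CPM, those at 24 h had 32.2, 24.1 and 21.1 CPM, and those at 72 h had 54.5, 32.7 and 53.9 CPM. All 24 h mice were at or below the lowest sham mouse, while at 72 h replicate 2 lay within the sham range and the other mice above it. Igf2 fell at 24 h (log2 ratio -0.45 with SE 0.17, edgeR adjusted p = 0.0395) and rose at 72 h (0.41 with SE 0.17, edgeR adjusted p = 0.037). Each of these calls was lost in 6 of 25 alternatives: the 24 h one without sham replicate 1 or 3 or 24 h replicate 2 or 3 (highest edgeR adjusted p = 0.172), and the 72 h one without any 1 of the sham mice or without 72 h replicate 1 or 3 (highest edgeR adjusted p = 0.163). Both were also lost in fits of the 2 groups alone, and the 24 h one with library-size scaling (edgeR adjusted p = 0.18). The rise between 24 h and 72 h was firmer, at 1.82-fold (log2 ratio 0.87, edgeR adjusted p = 0.000361), and was called in all 25. Gm49394, a protein-coding gene at chr7:142650769-142669942, overlaps Igf2 on the same strand and has no row in the count table. How reads shared by Igf2 and Gm49394 were counted is not known here, which limits the Igf2 level and the ratios that use it.

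Igf1r was raised at 6 h and back near sham at 72 h. It was at 27.9, 25.9 and 25.8 CPM in sham, 51.2, 32.8 and 38.6 CPM at 6 h, 28.8, 28.8 and 42.8 CPM at 24 h, and 23.6, 26.7 and 24.4 CPM at 72 h. The highest 6 h value came from replicate 1, the library with atrial markers, though the other 6 h mice also exceeded all sham mice. Igf1r rose 1.54-fold at 6 h (log2 ratio 0.62 with SE 0.15, edgeR adjusted p = 0.00582). Without replicate 1 the log2 fold change was 0.43 and the edgeR adjusted p 0.0506, on the other side of the threshold. At 24 h all mice were above sham, and the value of 0.33 did not pass (edgeR adjusted p = 0.0861), though it did without 24 h replicate 1, 24 h replicate 2 or 6 h replicate 1 (0.44, 0.43 and 0.33, edgeR adjusted p = 0.0405, 0.0444 and 0.0468). At 72 h the difference from sham was -0.09 on the log2 scale (SE 0.15, edgeR adjusted p = 0.623).

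Igf2r was the more abundant receptor per length of transcript and changed little. Its level was 172, 151 and 157 CPM in sham and 176, 233 and 197 CPM at 72 h. All 3 mice at 72 h were above sham, replicate 1 by a small margin, and Igf2r rose 1.26-fold (log2 ratio 0.34 with SE 0.12, edgeR adjusted p = 0.0179). The call was lost without sham replicate 2, sham replicate 3 or 72 h replicate 2, with edgeR adjusted p up to 0.129. Airn, an RNA antisense to Igf2r, had 96 to 216 counts per library against 2348 to 7657 for Igf2r. The use of strand in counting is not given in the sources used here, so reads of such overlapping pairs cannot be told apart.

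Igfbp7 was the binding protein with the highest level, also per length, and rose at each of the 3 later times. It was at 216, 223 and 266 CPM in sham, 404, 301 and 354 CPM at 6 h, 330, 452 and 456 CPM at 24 h, and 705, 869 and 714 CPM at 72 h. Every mouse from 6 h on was above every sham mouse. Igfbp7 rose 1.5-fold at 6 h (log2 ratio 0.59 with SE 0.14, edgeR adjusted p = 0.00366), 1.75-fold at 24 h (0.81, edgeR adjusted p = 0.000164) and 3.24-fold at 72 h (1.70 with SE 0.14, edgeR adjusted p = 6.71e-09). Without 6 h replicate 1 the 6 h value was 0.48 (edgeR adjusted p = 0.028), and without 24 h replicate 3 the 24 h value was 0.73 (edgeR adjusted p = 0.000599). The step between 6 h and 24 h did not pass (0.22, edgeR adjusted p = 0.231), but did without 24 h replicate 1 (0.38, edgeR adjusted p = 0.0316). The end of Polr2b overlaps that of Igfbp7 on the other strand, and Polr2b had 780 to 1596 counts per library against 3923 to 28538 for Igfbp7.

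Igfbp4, which mainly restrains IGF action until PAPP-A cleaves it, fell at 24 h and rose at 72 h. It was at 95.6, 89.2 and 97.2 CPM in sham, 78.7, 74.8 and 68.0 CPM at 24 h, and 202, 159 and 207 CPM at 72 h. Neither time overlapped sham. The fall at 24 h was 1.27-fold (log2 ratio -0.35 with SE 0.10, edgeR adjusted p = 0.00872) and the rise at 72 h was 2.01-fold (1.01 with SE 0.10, edgeR adjusted p = 6.58e-08). From 24 h to 72 h the gene rose 2.56-fold (1.36, edgeR adjusted p = 5.71e-09). The fall at 24 h was -0.29 without 24 h replicate 3 (edgeR adjusted p = 0.0426), and was not called with library-size scaling (edgeR adjusted p = 0.255).

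Igfbp3, the main carrier of IGFs in blood, was highest at 24 h. Its level was 57.9, 50.8 and 44.5 CPM in sham, 100, 58.4 and 69.9 CPM at 6 h, 83.1, 91.4 and 157 CPM at 24 h, and 46.7, 73.6 and 45.5 CPM at 72 h. The highest 6 h and 24 h values came from the libraries that stand apart, yet all mice at these times were above all sham mice. Igfbp3 rose 2.16-fold at 24 h (log2 ratio 1.11 with SE 0.25, edgeR adjusted p = 0.00236), and without 24 h replicate 3 the value was 0.77 (edgeR adjusted p = 0.013). At 6 h the value of 0.57 did not pass (edgeR adjusted p = 0.0972), and without 6 h replicate 1 it was 0.33; it passed without 24 h replicate 3 in the fit (0.57, edgeR adjusted p = 0.0377). The gene fell 2.0-fold between 24 h and 72 h (log2 ratio -1.0, edgeR adjusted p = 0.0034).

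Igfbp5 was low at both 6 h and 24 h, and Igfbp6 at 24 h. Igfbp5, which binds matrix as well as IGFs, was at 101, 108 and 95.5 CPM in sham, 66.3, 77.5 and 62.6 CPM at 6 h, 74.4, 73.6 and 40.5 CPM at 24 h, and 164, 107 and 122 CPM at 72 h. It fell at 6 h (log2 ratio -0.56 with SE 0.18, edgeR adjusted p = 0.0291) and at 24 h (-0.69 with SE 0.18, edgeR adjusted p = 0.00575). Without 24 h replicate 3 the 24 h value was -0.46 (edgeR adjusted p = 0.0141). The 6 h call was lost in 5 of 25 alternatives, those without sham replicate 1 or 2 or without 6 h replicate 1 or 3 and the one with no filter, with edgeR adjusted p up to 0.0949 (without 6 h replicate 1). At 72 h, replicate 2 lay within the sham range and the value of 0.36 did not pass (edgeR adjusted p = 0.0854). Without that replicate it did (0.49, edgeR adjusted p = 0.0359), as it did without 24 h replicate 3 (0.36, edgeR adjusted p = 0.0121).

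Igfbp6, which prefers IGF2 over IGF1, was at 24.3, 23.2 and 22.7 CPM in sham, 10.1, 8.31 and 6.7 CPM at 24 h, and 29.1, 16.3 and 16.3 CPM at 72 h. At 10 min (20.4, 21.9 and 19 CPM) and 1 h (19.2, 19.4 and 19.8 CPM) all mice were already below sham, but neither passed (log2 ratio -0.19 and -0.26, edgeR adjusted p = 0.912 and 0.963). It fell 2.79-fold at 24 h (log2 ratio -1.48 with SE 0.20, edgeR adjusted p = 2.81e-05), the deepest fall among the 9 tested genes at any time against sham. Without 24 h replicate 3 it was -1.35 (edgeR adjusted p = 0.00018). It rose 2.45-fold between 24 h and 72 h (1.29, edgeR adjusted p = 3.32e-05). The 72 h mice then lay on both sides of the sham range (-0.19 with SE 0.19, edgeR adjusted p = 0.40), with replicate 1 above it and the other mice below. Without replicate 1, Igfbp6 was lower than sham at 72 h too (-0.52, edgeR adjusted p = 0.0069). Igfbp2 had 0, 0 and 2 counts in sham and 4, 8 and 14 counts at 72 h, and no fold is given, since all sham libraries were under the floor of 3 counts.

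**Figure D2:**
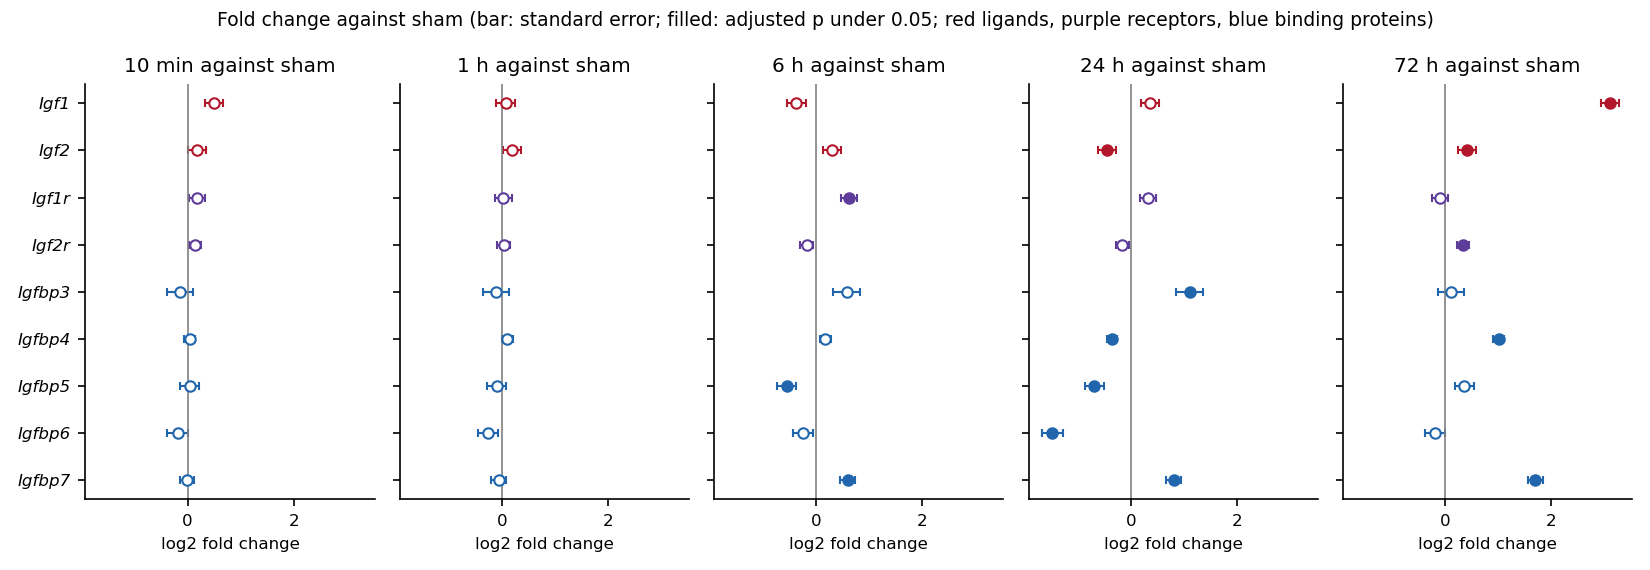
Log2 fold change against sham (x axis) of the 9 tested genes (y axis) at each time, with standard errors; filled points passed an adjusted p of 0.05, and red, purple and blue are ligands, receptors and binding proteins. No point is filled at 10 min or 1 h, the most negative point is Igfbp6 at 24 h (-1.48), and the most positive is Igf1 at 72 h (3.11).

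Counted over the 9 tested genes, the contrasts with sham gave 0 calls at 10 min and 0 at 1 h, as did DESeq2. At an unadjusted p under 0.05 there was 1 at 10 min (1144 of all genes) and 0 at 1 h (899 of all genes). Of all genes, 0.0736% were called at 10 min and 0.294% at 1 h. At 6 h, 2 were higher and 1 lower, against 16.3% and 12.2% of all genes. At 24 h, 2 were higher and 4 lower, against 23.7% and 20.2% of all genes. At 72 h, 5 were higher and 0 lower, against 34.2% and 32.2% of all genes. For the 3 later times in order, the 9 genes had median log2 fold changes of 0.17, -0.16 and 0.36, and all genes -0.01, 0.01 and 0.03. All 9 differed at some time by the F test, as did 78.4% of all genes. The scaling bears on these counts. With library-size scaling all genes had medians of -0.12, 0.2 and 0.61 at these times. The 9 genes then split into 2 higher and 1 lower at 6 h, 4 higher and 2 lower at 24 h and 8 higher and 0 lower at 72 h. Under that scaling the share of higher genes among all calls was 40.6% at 6 h, 75.5% at 24 h and 79.9% at 72 h, against 57.2%, 54.0% and 51.4% with TMM; at 10 min it was 77.8% against 41.7%. The 3 further genes at 72 h were Igf1r (0.50), Igfbp3 (0.70) and Igfbp5 (0.95), of which only Igfbp5 lay above the shift of all genes by more than 0.1. Without 6 h replicate 1 the count at 6 h was 1, Igfbp7, and without sham replicate 2 or sham replicate 3 the count at 72 h was 3.

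Between consecutive times, 0 of 9 were called from 10 min to 1 h (0.307% of all genes; 1 at an unadjusted p under 0.05, and 0 by DESeq2). From 1 h to 6 h, 2 rose, Igf1r and Igfbp7, and 0 fell, against 14.5% and 10.0% of all genes. From 6 h to 24 h, 1 rose, Igf1, and 3 fell, Igf2, Igfbp4 and Igfbp6, against 14.2% and 13.7% of all genes. Of these, the Igf1 call was lost in the fit of the 2 groups alone, and that of Igfbp4 with library-size scaling (edgeR adjusted p = 0.123). From 24 h to 72 h all 9 were called, 7 higher and 2 lower, against 24.4% and 26.1% of all genes. Igf1r and Igfbp3 were the 2 that fell. The Igf1r call was lost in 6 of 25 alternatives, with edgeR adjusted p up to 0.872. It was lost without 24 h replicate 3 (log2 ratio -0.22, edgeR adjusted p = 0.192), 72 h replicate 1 or 72 h replicate 3. Library-size scaling, a filter of at least 10 counts in every library and the fit of the 2 groups alone also lost it. The median of the 9 was 0.89 against -0.03 for all genes. With library-size scaling the share of higher genes among all calls was 45.7% from 1 h to 6 h, 88.0% from 6 h to 24 h and 81.5% from 24 h to 72 h, against 59.2%, 50.9% and 48.4% with TMM, and the 9 genes split into 2 higher and 1 lower, 4 and 2, and 7 and 1. From 1 h to 6 h, the count was 1 without 6 h replicate 1 and 5 without 24 h replicate 3. These contrasts share libraries with those against sham and are not independent of them.

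To compare genes with each other, CPM was divided by the exon length behind the deposited values, in kilobases (kb). In sham, Igfbp7 led at 195 ± 22.5 CPM per kb (SD, n = 3). Igfbp4 (21.3 ± 0.958) and Igfbp6 (21 ± 0.734) followed with overlapping values, and then Igf2r (16.9 ± 1.15), Igfbp5 (16.9 ± 1.07) and Igfbp3 (16.3 ± 2.14), which also overlapped. Igf2 (6.16 ± 0.487), Igf1r (1.58 ± 0.0692), Igf1 (0.928 ± 0.074) and Igfbp2 (0.016 ± 0.0278) came last, each apart from the next. At 72 h Igfbp7 was at 631 ± 76.0 CPM per kb and Igfbp4 at 42.9 ± 6.07, still first and second. Igfbp5, Igf2r, Igfbp6 and Igfbp3 overlapped from neighbour to neighbour. Igf1 (8.04 ± 0.806) now overlapped Igf2 (8.22 ± 2.17) and stood above Igf1r (1.48 ± 0.0965), the receptor it had been below in sham.

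**Figure D3:**
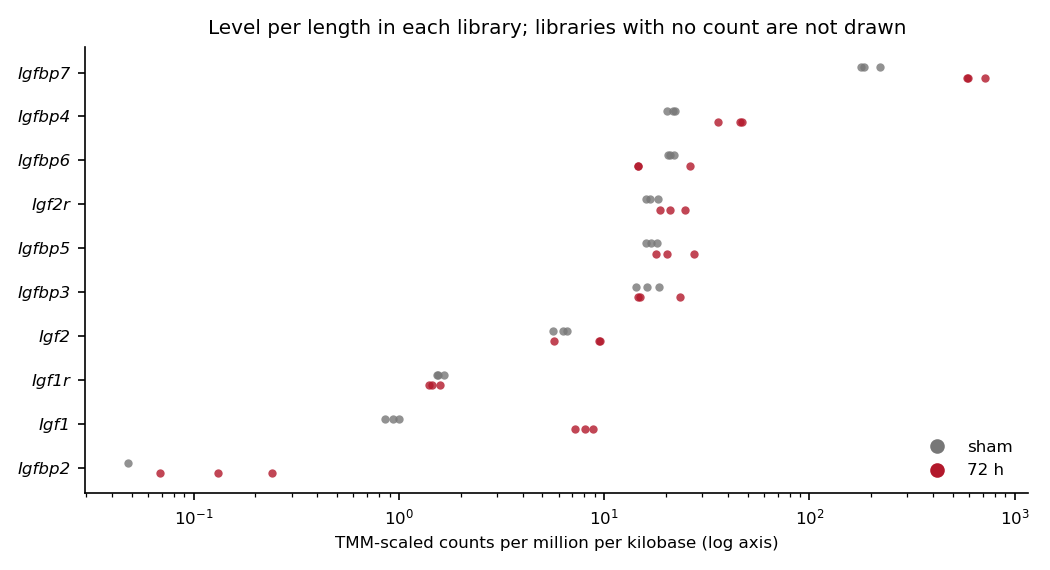
Level per length (x axis, CPM per kb, log axis) of each gene (y axis, in the order of sham) in the 3 sham libraries (grey) and the 3 libraries at 72 h (red); libraries with no count are not drawn. Igf1 moves from below Igf1r to the level of Igf2, and Igfbp7 stays well above the other genes in both groups.

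The mix within the family also changed, and shares and ratios within a library do not depend on the scaling between libraries. Igf1 made up 13.1% ± 1.47 of the summed ligand level per kb in sham, 8.68% ± 1.27 at 6 h, 21% ± 4.94 at 24 h and 50.0% ± 5.17 at 72 h (SD, n = 3 each). The sham mice were at 11.5%, 14.2% and 13.7% and the 72 h mice at 45.9%, 55.8% and 48.4%, with no overlap. Shares and ratios are given as a description, with no test; a two-sided exact permutation test of 3 against 3 cannot go below p = 0.10.

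Igfbp7 made up 71.9% ± 3.0 of the summed level of the 6 binding proteins per kb in sham, 78.9% ± 1.99 at 6 h, 82.8% ± 2.22 at 24 h and 86.1% ± 2.51 at 72 h. The share of Igfbp6 went from 7.82% ± 0.779 in sham to 1.9% ± 0.696 at 24 h and 2.56% ± 1.04 at 72 h. Igfbp3 held 6.09% ± 1.17 in sham, 8.51% ± 2.27 at 24 h and 2.38% ± 0.447 at 72 h. Igfbp4 held 7.9% ± 0.453 and 5.94% ± 1.32, and Igfbp5 6.3% ± 0.784 and 3.02% ± 0.859, in sham and at 72 h. The share of Igfbp4 was 6.56%, 4.43% and 6.83% in the 72 h mice, below the 8.4%, 7.78% and 7.51% of sham, although its level was 2.01-fold higher.

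Set against the ligands, the binding proteins other than Igfbp7 had a summed level per kb 10.7 ± 0.765 times that of Igf1 and Igf2 in sham and 6.30 ± 0.924 times at 72 h. The sham ratios were 10.6, 11.5 and 9.97 and those at 72 h were 6.48, 7.12 and 5.3, without overlap. At 24 h the ratio was 9.64, 11.5 and 17.4, the last in the replicate that stands apart. With Igfbp7 included the sham ratio was 38.2 ± 3.03, that at 24 h 75.6 ± 25.5 and that at 72 h 46.7 ± 13.9. The 72 h values (39.6, 62.7 and 37.7) overlapped sham. The ratio of Igf2r to Igf1r was 11, 10.4 and 10.8 in sham, 5.66, 7.07 and 5.93 at 6 h, and 13.2, 15.5 and 14.4 at 72 h. It was below all sham mice at 6 h and above them at 72 h.

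**Figure D4:**
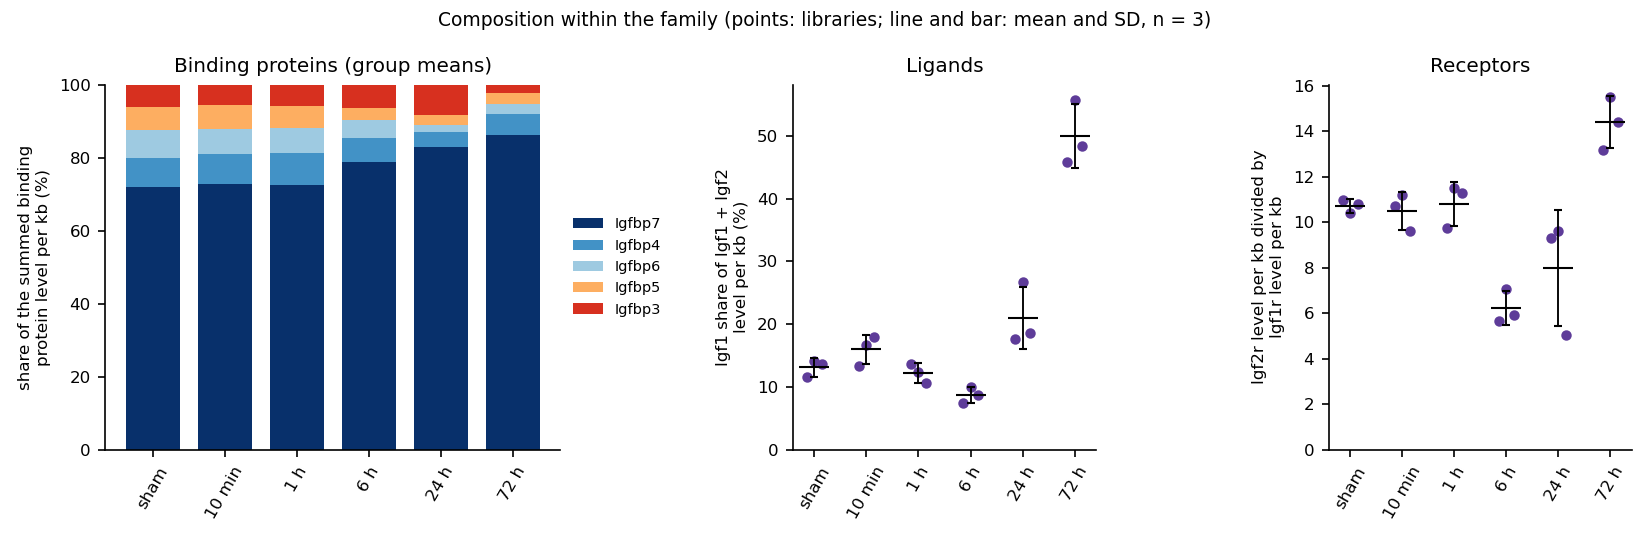
Left, mean share (y axis, %) of each binding protein in the summed binding protein level per kb by group (x axis); Igfbp2, under 0.03%, is not drawn. Middle and right, the Igf1 share of the ligands (%) and the ratio of Igf2r to Igf1r in each library (points) with mean and SD of 3; Igf1 reaches 45.9 to 55.8% at 72 h, and the ratio is lowest at 6 h apart from 24 h replicate 3 at 5.03.

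The list of the IGF receptor signalling chain held 24 genes, all tested, and included the insulin receptor gene Insr. Of the 24, 6 were higher and 3 lower at 6 h, 4 higher and 2 lower at 24 h, and 1 higher and 10 lower at 72 h. Over all genes the shares higher and lower were 16.3% and 12.2%, 23.7% and 20.2%, and 34.2% and 32.2% at these times, and the same shares apply to the lists that follow. Without 6 h replicate 1, 4 were higher and 1 lower at 6 h, and without 24 h replicate 3, 3 were higher and 2 lower at 24 h. The median at 72 h was -0.18 against 0.03 for all genes. With library-size scaling the split at 72 h turned to 15 higher and 4 lower with a median of 0.41. Under that scaling the median of all genes at 72 h was 0.61, and 79.9% of all calls were higher, against 51.4% with TMM. This background also applies to the library-size counts of the lists that follow. Insr, Tsc2, Mtor and Grb14 were lower under both scalings, and Rheb was among those that changed direction. Insr, the insulin receptor, which can pair with IGF1R, had the smallest adjusted p at 72 h. It went from 133, 133 and 138 CPM in sham to 56.3, 51.7 and 55.1 CPM, a 2.48-fold fall (edgeR adjusted p = 5.1e-09). Tsc2, a brake on mTOR, fell 1.96-fold (edgeR adjusted p = 7.94e-08) and Mtor, the growth kinase itself, fell 1.9-fold (edgeR adjusted p = 3.57e-07). The 1 gene that rose was Shc1, an adaptor towards RAS, at 2.02-fold (edgeR adjusted p = 1.3e-06). Among the others that fell were Grb14, Pik3r1, Akt2, Rheb, Foxo1 and Foxo3. At 1 h the 1 call was Irs2, a docking protein of the receptor, which rose 3.2-fold (edgeR adjusted p = 0.00363). Shc1, Irs2 and, further on, Esm1, Ccn3 and Socs3 are named because they were the lone calls of their list, contrast and direction. Cardiomyocyte markers fell with these genes (8 of 8 lower at 72 h, their sum 57855 to 63032 CPM in sham and 15218 to 20056 CPM at 72 h), and their part in the falls was not tested.

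Of 10 genes that free IGFs from binding proteins, inhibit that step or stabilise the complex in blood, 9 were tested, and 4 were higher and 3 lower at each of 6 h, 24 h and 72 h (4 and 2 at 72 h with library-size scaling). Over all genes 34.2% were higher and 32.2% lower at 72 h, so the counts at that time are near the background. Without 6 h replicate 1, 4 were higher and 2 lower at 6 h, and without 24 h replicate 3, 3 and 3 at 24 h. Adam12, a protease that cuts IGFBP3 and IGFBP5, went from 0.303, 0.259 and 0.40 CPM in sham to 37.6, 60.2 and 45.2 CPM at 72 h (log2 ratio 7.18 with SE 0.33, edgeR adjusted p = 1.19e-11). Its sham libraries held 5 to 9 counts, so the size of this fold rests on few counts. Plau, the urokinase protease, rose 3.2-fold at 24 h and 6.33-fold at 72 h (edgeR adjusted p = 6.44e-05 and 5.78e-08). Mmp2, a matrix protease, fell at 24 h (log2 ratio -0.87, edgeR adjusted p = 2.83e-06) and rose at 72 h (0.95, edgeR adjusted p = 5.51e-08).

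Within the same list, Pappa, the protease of IGFBP4, was named after its values were seen. It was at 0.404, 0.57 and 0.622 CPM in sham and 4.26, 6.33 and 3.82 CPM at 72 h, an 8.91-fold rise (edgeR adjusted p = 2.79e-06). Stc2, which inhibits PAPP-A and was also named after its values were seen, was at 27.9, 26.2 and 25.7 CPM in sham and 10.1, 6.94 and 7.48 CPM at 72 h. It fell 3.26-fold (edgeR adjusted p = 3.41e-07). Stc1, the related inhibitor in the list, took another course: it rose 3.56-fold at 6 h and 2.17-fold at 24 h (edgeR adjusted p = 0.000381 and 0.00726), and at 72 h its value of -0.37 did not pass (edgeR adjusted p = 0.309). The 24 h call of Stc1 was lost without 24 h replicate 3 (0.79, edgeR adjusted p = 0.0506). Not all proteases of the list were higher at 72 h. Htra1 was lower (log2 ratio -0.51, edgeR adjusted p = 0.0112), though not called with library-size scaling, and Adamts1 was near sham (0.03, edgeR adjusted p = 0.925).

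Other genes with an IGF-binding-type domain gave 5 tested genes of 6; Igfbp1 was not analysed here. Of the 5, 2 were higher and 1 lower at each of the 3 later times (4 and 1 at 72 h with library-size scaling), which at 72 h is near the 34.2% and 32.2% of all genes. The counts at 6 h and 24 h were the same without 6 h replicate 1 and without 24 h replicate 3. The lower gene was Esm1 at 6 h (log2 ratio -1.33, edgeR adjusted p = 0.0125) and Ccn3 at 24 h (-1.36, edgeR adjusted p = 0.000438). Ccn2, a matricellular protein made in scar tissue, was at 36.0, 30.9 and 31.3 CPM in sham and 226, 285 and 229 CPM at 72 h, 7.54-fold higher (edgeR adjusted p = 1.73e-06). Its fold was larger earlier, at 13.6-fold at 6 h and 9.52-fold at 24 h (edgeR adjusted p = 5.4e-06 and 6.96e-06). Ccn1, an early response gene of the same kind, rose 8.33-fold already at 1 h (edgeR adjusted p = 0.00217) and was 2.41-fold higher at 72 h (edgeR adjusted p = 0.00972). Igfbpl1 fell at 72 h (log2 ratio -1.82 with SE 0.54, edgeR adjusted p = 0.00599), with groups that overlapped. It had only 4, 15 and 21 counts in sham and 7, 3 and 7 counts at 72 h, so this fall rests on few counts.

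In the growth hormone axis, 7 genes were tested, and 3 were higher and 2 lower at 6 h, 2 and 2 at 24 h, and 1 and 3 at 72 h, where the shares of all genes were 16.3% and 12.2%, 23.7% and 20.2%, and 34.2% and 32.2%. Without 6 h replicate 1, 3 were higher and 1 lower at 6 h, and without 24 h replicate 3, 2 and 1 at 24 h. Ghr, the growth hormone receptor, was at 133, 143 and 139 CPM in sham and 66.8, 64.6 and 58.3 CPM at 72 h, a 2.19-fold fall (edgeR adjusted p = 8.66e-08). Stat5b, the factor through which it induces Igf1, fell 1.63-fold (edgeR adjusted p = 1.62e-05), and Cish, a target of STAT5, fell 2.7-fold (edgeR adjusted p = 9.29e-05). With library-size scaling, 3 were higher and 2 lower at 72 h, Ghr and Cish being the 2, and Stat5b was not called. The 1 gene higher than sham at 72 h was Socs3, a feedback inhibitor of cytokine signalling, at 7.34-fold (edgeR adjusted p = 0.00109). Socs3 was further above sham earlier, 34.7-fold at 6 h and 13.3-fold at 24 h (edgeR adjusted p = 0.000135 and 0.000504). Socs2, another feedback inhibitor, was not called at 72 h (-0.12, edgeR adjusted p = 0.325). All 8 cardiomyocyte markers fell at 72 h as well, and their part in the falls of this list was not tested.

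H19, a long RNA imprinted with Igf2, lies 72.6 kb from it and is expressed from the maternal copy. It was at 11, 8.04 and 8.66 CPM in sham and 132, 90.2 and 161 CPM at 72 h, 13.8-fold higher (log2 ratio 3.79 with SE 0.29, edgeR adjusted p = 2.02e-08), while Igf2 was 1.33-fold higher. At 24 h H19 was higher by 0.73 (edgeR adjusted p = 0.0457), a call lost without 24 h replicate 3 (0.72, edgeR adjusted p = 0.115). Igf2bp2, which binds the Igf2 messenger, rose 5.35-fold at 6 h and 3.6-fold at 72 h (edgeR adjusted p = 1.98e-05 and 1.87e-05). Igf2bp3 did not pass at 72 h (0.22 with SE 0.54, edgeR adjusted p = 0.733), and Igf2bp1 was not tested.

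For each member the genes most like it were sought among the 11682 genes whose mean count was 50 or more, by the root mean square difference of centred log2 CPM over the 18 libraries. This is a description over libraries that share their groups. For Igf1 these were Srpx2 (0.242) and C1qc (0.247), a complement gene made by macrophages, where the median gene was at 1.211. Srpx2 was at 8.19, 8.25 and 8.57 CPM in sham and 52.3, 61.0 and 54.2 CPM at 72 h. C1qc was at 60.0, 66.1 and 67.9 CPM in sham and 554, 414 and 512 CPM at 72 h. For Igfbp7 they were Cavin3, a caveolar coat protein, and Apaf1 (both 0.138, median gene 0.713). For Igfbp4 they were Psap (0.122) and Scamp5 (0.162), against a median of 0.547. Igfbp3 was closest to Hmga1 (0.164) and Wdr46 (0.191), against a median of 0.616, and the highest Hmga1 value, 119 CPM, was in the same 24 h replicate 3 as that of Igfbp3. Igfbp6 was closest to Scn7a (0.214) and Gpc3 (0.222, median gene 0.636), and Igfbp5 to Plxdc2 (0.16) and Steap3 (0.165, median gene 0.553). Igf2 was closest to Tcn2 (0.167) and Itm2b (0.169, median gene 0.486), Igf1r to Cebpz (0.114) and Dusp16 (0.116, median gene 0.446), and Igf2r to Slc44a1 (0.099) and Lamc1 (0.124, median gene 0.404). Within the family the closest pair was Igf2 and Igfbp4, at 0.29. The root mean square of each around its own mean was 0.338 for Igf2 and 0.421 for Igfbp4, so 0.29 is only a little smaller than the variation of Igf2 itself.

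Markers of other cells moved at the times when the family did. All 8 macrophage markers rose at 72 h, and their sum was 312 to 365 CPM in sham, 653 to 720 CPM at 24 h and 3611 to 4722 CPM at 72 h. Of 8 fibroblast markers, 4 were lower and 2 higher at 24 h, and 7 were higher and 1 lower at 72 h. Their sum was 2050 to 2276 CPM in sham, 1118 to 1443 CPM at 24 h and 4860 to 5740 CPM at 72 h, so it was below sham at 24 h and above it at 72 h, as were the levels of Igf2 and Igfbp4 in most mice. All 8 neutrophil markers rose at 6 h, when Igf1r did, and their sum was 5.37 to 7.57 CPM in sham and 269 to 927 CPM at 6 h. Ly6g was at 0 in all sham mice. Of the 8, 7 were still higher at 24 h and 6 at 72 h (sum 66.3 to 79.8 CPM), when Igf1r was not called against sham. Endothelial markers summed to 1301 to 1458 CPM in sham. At 6 h they summed to 1382 to 1894 CPM, with 3 of 8 higher and 1 lower. At 24 h the sum was 1013 to 1250 CPM, with 1 of 8 higher and 4 lower. At 72 h it was 853 to 1086 CPM, with 5 of 8 lower and 1 higher. Igfbp7 was above sham at all 3 of these times. Pericyte and smooth muscle markers were lower in 6 of 8 and higher in 1 at 72 h, from 1372 to 1414 CPM to 598 to 732 CPM. Mesothelial markers summed to 63.4 CPM in 72 h replicate 1 against 20 and 22.8 in the other mice; that library also had the highest Igfbp5 and Igfbp6 of its group. The part of these cells in the results was not tested.

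**Figure D5:**
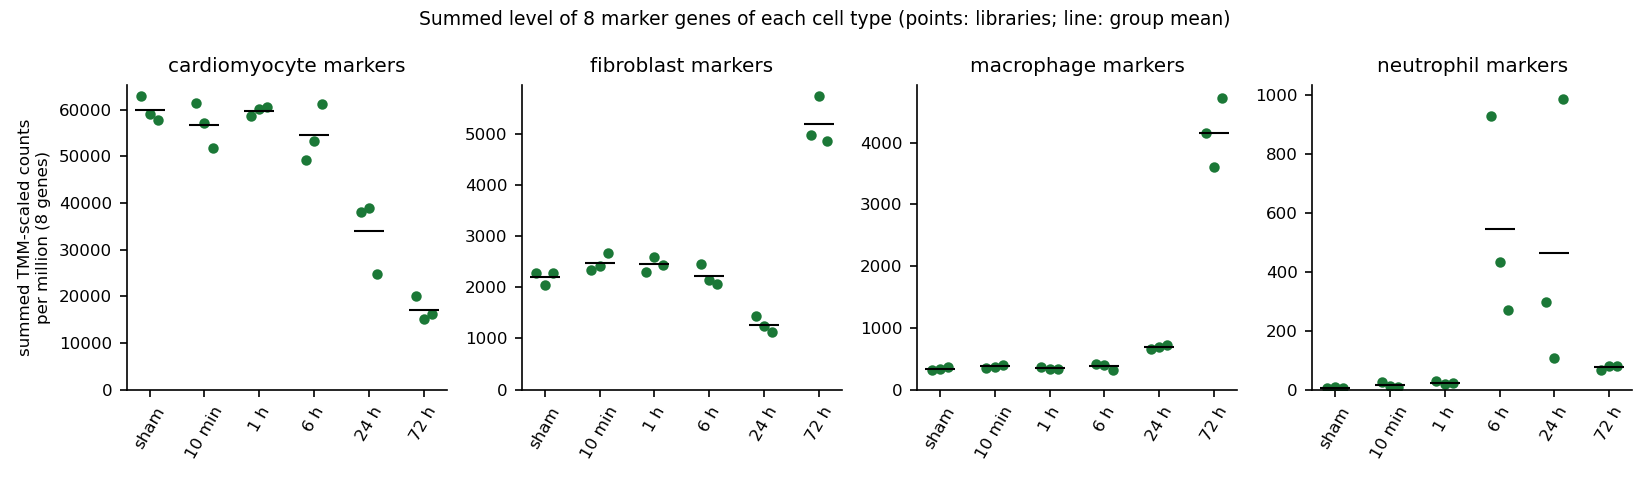
Summed level (y axis, TMM-scaled CPM, from 0) of 8 marker genes of each of 4 cell types in every library (points) with the group mean (line), by group on the x axis. Macrophage and fibroblast sums are highest at 72 h, the cardiomyocyte sum is lowest then, and neutrophil sums differ most between mice at 6 h and 24 h.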

How the data were processed

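The authors deposited read counts per Ensembl gene, whole numbers, and FPKM; per the submitters' processing notes, reads were trimmed with cutadapt 1.18, aligned with HISAT2 2.1.0 to mm10 and counted with featureCounts. The deposited FPKM gave only the exon length of each gene, which equalled that of GENCODE M21 for 87.0% of 10450 well-covered genes; the FPKM columns of 6 h replicates 2 and 3 each hold the other's values, and were not otherwise used. Counts were fitted in R 4.3.3 with edgeR 4.0.16: filterByExpr (16311 genes kept), TMM, glmQLFit (robust) with 1 mean per group over 18 libraries, and two-sided glmQLFTest, with Benjamini-Hochberg adjustment over all genes and a threshold of 0.05. Alternatives were DESeq2 1.42.0, other scalings and filters, a replicate block, fits of 2 groups only, and leaving out each library; leaving out 6 h replicate 1 or 24 h replicate 3 was extended to the pathway lists after seeing the data. The script was first tested on simulated data. Each mouse gave 1 library. Counting error weighs most on genes with few counts, such as Igfbp2 and Igfbpl1, and Adam12 and Pappa in sham.

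All 10 members are described; of each pathway list the 3 lowest adjusted p-values at 72 h decided which genes are named, and other names were chosen after their values were seen. The members and lists were chosen with earlier results of these data known. No pairing of the mice by replicate number was seen.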

Additional observations from a re-analysis of the deposited data

Results flagged for a closer look

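Igf2 and Igfbp4 were each called lower than sham at 24 h and higher than sham at 72 h. The contrast of 72 h with 24 h tests the difference between these times, not the place of either time against sham. Each Igf2 call against sham was lost in 6 of 25 alternatives. The Igfbp4 call at 24 h was lost with library-size scaling (edgeR adjusted p = 0.255). For Igf2 the difference was 0.87 on the log2 scale (edgeR adjusted p = 0.000361) and for Igfbp4 it was 1.36 (edgeR adjusted p = 5.71e-09). In both genes all 3 mice at 72 h were above all 3 at 24 h. For Igf2 the margin was small, with 72 h replicate 2 at 32.7 CPM and 24 h replicate 1 at 32.2 CPM. The fibroblast marker sum was likewise below sham at 24 h (1118 to 1443 CPM against 2050 to 2276) and above it at 72 h (4860 to 5740), and its part in the difference was not tested. Groups of 3 are too small for a test of single outlying mice.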

How the results depend on the processing

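The 9 genes gave 29 calls over the 9 contrasts, of which 19 were kept in all 25 alternatives, 10 were lost in at least 1 and 0 changed sign. Losses numbered 0 with RLE scaling or DESeq2, 4 with library-size scaling, 4 in fits of the 2 groups alone, 1 with no filter beyond 1 count and 1 with at least 10 counts in every library; the call lost by Igf1, from 6 h to 24 h, was in the fit of the 2 groups alone (edgeR adjusted p = 0.0816). A replicate block also lost 0 calls, and no pairing of the mice by replicate number was seen. Of 45 same-numbered pairs, 2 had a correlation over 0.1 (range -0.33 to 0.32). With 3 mice per group this cannot exclude a shared day or batch. Fits of the 2 groups alone called 1 gene at 10 min (Igf1) and 4 from 1 h to 6 h, and library-size scaling called 8 at 72 h. Leaving out 1 library at a time, the count ran from 1 to 4 at 6 h, from 3 to 6 at 72 h and from 1 to 5 between 1 h and 6 h. The cause of these shifts was not tested.

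Without division by length, the binding protein shares, from sham through the 5 times in order, were 46.5, 46.6, 46.3, 56.5, 61.4 and 65.7% for Igfbp7, 20.2, 20.8, 19.4, 11.2, 9.66 and 11.3% for Igfbp5, 18.6, 19.3, 20.7, 17, 11.2 and 16.4% for Igfbp4, and 10.1, 9.26, 9.65, 12.1, 16.4 and 4.73% for Igfbp3. Those of Igfbp6 up to 6 h were 4.63, 4.08, 3.99 and 3.21%. By construction this lowers the share of short genes. Depth limits Igfbp2, with at most 14 counts.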
